A study of Mus musculus with 6 samples.

Results

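Coagulation and complement are carried out by plasma proteins that hepatocytes make and secrete, and 41 genes of these pathways were followed in the liver. They are 23 coagulation genes (clotting factors, fibrinogen, fibrinolysis, inhibitors and kinins) and 18 complement genes, taken by their symbols from the 24411 genes of the count table. Liver RNA of 3 p62+/+ (wild-type) mice and 3 p62S351E/+ mice was sequenced at postnatal day 19. The p62S351E/+ mice are heterozygous for a knock-in of Sqstm1, the gene of the autophagy receptor p62, in which Glu takes the place of Ser351 to mimic its phosphorylation. The allele was made by prime editing in an embryonic stem cell line derived from C57BL/6N, and the heterozygotes were bred by in vitro fertilization with sperm of one chimeric male, so the line goes back to this male. The groups are called wild-type and S351E below. The allele is in the germline and not limited to the liver, and the labels and methods give neither sex nor batch. The question addressed here is whether the transcripts of these plasma proteins differed between the genotypes, and whether coagulation and complement genes did so alike.

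In coagulation, proteases activate each other in series until thrombin (from F2) cuts fibrinogen into fibrin. Antithrombin and the protein C pathway restrain the series, and plasmin (from Plg) dissolves the clot. Complement is started by antibody and C1, by lectins that bind sugars on microbes, or by spontaneous activation of C3, and ends in a pore assembled from C5 to C9. Most of these proteins come from hepatocytes, and several, such as fibrinogen and C3, are acute-phase proteins. Since whole liver was sequenced, fewer hepatocytes and less RNA per hepatocyte cannot be told apart.

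The estimated counts summed to between 8696712 and 10341622 per library, but only between 134911 and 315436 of them remained without Rn45s, Lars2 and Mir6236, and the former number belongs to S351E mouse 1. The 41 genes held between 5616 and 11275 counts per library. All 41 passed the filter on low counts and were among the 5945 genes tested. Hepatocyte markers, none of them at 0 throughout, summed to 15093, 13900 and 14380 normalized counts in wild-type mice and to 22666, 34926 and 16057 in S351E mice 1, 2 and 3, without overlap, whereas 9 markers of megakaryocytes and platelets summed to at most 11 raw counts. Summed raw counts of 12 brain markers were between 2353 and 2763 in wild-type mice and 2533 in S351E mouse 3, against 47 and 35 in S351E mice 1 and 2, and none of the 12 was at 0 in all libraries. Counts of Xist, the female-specific RNA of X inactivation, were between 70.8 and 1505 in the wild-type group, and S351E mice 1, 2 and 3 had 1, 0 and 1537. The libraries therefore differed in brain transcripts and in Xist within the S351E group, and the values of the main genes with and without these libraries are given further on. Sqstm1 transcripts do not check the genotype, because the allele changes a single codon and counts per gene do not show it.

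Among the 41 genes, 1 passed the thresholds (adjusted p below 0.05 and absolute log2 fold change above 1), Hrg, which was higher in S351E mice. Over all tested genes, 0.841% passed as higher and 0.0841% as lower, and 0 of the 41 passed as lower by edgeR, DESeq2 or limma-voom (0 at an unadjusted p below 0.05, edgeR). Hrg was also the 1 member called by DESeq2 and by limma-voom. None of the other 40 genes passed, and their smallest adjusted p was 0.121 (F5, edgeR). With limma-voom, F5 and Kng1 had an adjusted p of 0.0353 and 0.0324, and their log2 fold changes of 0.89 and 0.94 were under the fold minimum.

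Hrg encodes histidine-rich glycoprotein, a plasma protein that binds heparin, plasminogen and fibrinogen. In wild-type mice it had 98.7, 117 and 111 normalized counts, and in S351E mice 1, 2 and 3 it had 373, 495 and 342 normalized counts. Each S351E mouse, including mouse 3 with its brain transcripts, was far above each wild-type mouse, and the groups did not overlap. Group means were 109 ± 9.38 and 403 ± 81.1 normalized counts (SD, n = 3 each). The fitted log2 fold change was 1.89 (standard error, SE, 0.23) or 3.70-fold, with an adjusted p of 0.00891 from edgeR's quasi-likelihood test. An exact permutation test of 3 against 3 mice gave p = 0.1 (two-sided), the smallest value this design allows. Counts of Hrg were whole numbers in all libraries, so no sign of reads divided with other genes was seen. As a share of all counts of the 41 genes, which no scaling of libraries alters, Hrg took 1.29%, 1.65% and 1.56% in wild-type mice and 3.49%, 3.49% and 4.2% in S351E mice. This share was thus highest in S351E mouse 3. The log2 fold change was 1.66 when S351E mouse 3 alone was set against the wild-type mice, so that only the 4 libraries with brain transcripts remained. No p is given for this arm of 1 mouse. Without S351E mouse 3 the log2 fold change was 2.0 (adjusted p = 4.95e-05, edgeR). The S351E mice of that subset were both low in brain markers, so it cannot tell genotype from brain transcripts. With the brain marker level as a term of the fit it was 1.6. Of the S351E mice only mouse 3 had a brain marker level near that of the wild-type mice. The value of 1.6 therefore rests mainly on mouse 3 too and is no separate check, and no p is given for it. The call was lost without wild-type mouse 1, 2 or 3 (adjusted p = 0.0875, 0.0798 and 0.0738, edgeR, with log2 fold changes of 1.83, 1.95 and 1.91) and with library size as the only scaling (1.21, adjusted p = 0.417).

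Hrg lies on chromosome 16 of GRCm38 (mm10) from 22951072 to 22961656 on the forward strand. The bases upstream of its start, and of the start of its neighbour Fetub, are shown because these were the genes that passed the thresholds in this stretch of the chromosome. They are RefSeq windows of GRCm38.p6, forward strand, that end before the first exon of the GENCODE gene. Capitals mark a match to the C/EBP-type motif TTGCNNAA, searched on both strands.
Hrg, chr16:22950822-22951071: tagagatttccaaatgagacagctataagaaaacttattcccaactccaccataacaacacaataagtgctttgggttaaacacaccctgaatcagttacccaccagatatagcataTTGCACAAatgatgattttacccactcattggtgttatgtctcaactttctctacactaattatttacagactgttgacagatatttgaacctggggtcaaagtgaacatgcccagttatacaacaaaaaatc
Fetub, chr16:22918132-22918333: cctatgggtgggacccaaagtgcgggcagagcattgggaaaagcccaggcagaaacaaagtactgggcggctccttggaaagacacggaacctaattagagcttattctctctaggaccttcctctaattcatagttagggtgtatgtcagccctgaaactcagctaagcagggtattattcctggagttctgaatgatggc
The Hrg window holds 1 such match, from 22950939 to 22950946, and the Fetub window holds none of the motifs searched.

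The genes next to Hrg were examined after its value had been seen. Hrg, Fetub, Ahsg, Kng2 and Kng1 are neighbours that encode cystatin-related plasma proteins: Ahsg encodes fetuin-A, which holds back mineralization, Fetub encodes fetuin-B, an inhibitor of the egg protease ovastacin, and the kininogens of Kng1 and Kng2 are the precursors of bradykinin. Fetub, whose start is 32.7 kb before that of Hrg, had 128, 107 and 97.6 normalized counts in wild-type mice and 339, 317 and 272 in S351E mice. It was above the wild-type range in every S351E mouse, and passed the thresholds (log2 fold change 1.48, SE 0.21, adjusted p = 0.0205, edgeR). Kng1 had 360.2, 337 and 374 normalized counts in wild-type mice and 669, 889 and 542 in S351E mice. The groups did not overlap, but the log2 fold change of 0.97 (SE 0.24) did not pass (adjusted p = 0.123, edgeR). Kng2 had 54.7, 56.9 and 45.9 against 123, 117 and 68.0 normalized counts, and the same log2 fold change of 0.97 (SE 0.27, adjusted p = 0.17, edgeR). Kng1 and Kng2 are close paralogs whose counts were not all whole numbers, so that reads may be divided between them, but Kng1 took between 84.5% and 89.1% of their joint counts in every mouse, and their sum was 415, 394 and 419.8 in wild-type mice and 792, 1005 and 610.4 in S351E mice. Ahsg, the abundant fetuin-A gene, overlapped between the groups (log2 fold change 0.56, SE 0.29). Masp1, a lectin pathway gene whose start is 498 kb beyond that of Hrg, had 18.5, 12.4 and 12.96 normalized counts in wild-type mice and 32.4, 37.8 and 23.2 in S351E mice. Its groups did not overlap either, and it had the second highest log2 fold change of the 41 genes (1.08, SE 0.30, adjusted p = 0.174, edgeR).
Of 23 coding genes that start within 1000 kb of the start of Hrg, 11 were tested, 9 had a log2 fold change above 0, and 6 were higher without overlap of the groups. Without Hrg, which had prompted the choice of the window, these were 5 of 10, and 12.0% of all tested genes were higher without overlap. Among the 41 genes this share was 34.1%. It was 30.8% among 26 other hepatocyte plasma protein genes described further on, which include Fetub and Ahsg. Eif4a2, a translation factor gene just beyond Kng1, was lower in all S351E mice than in all wild-type mice (log2 fold change -0.42, SE 0.23, adjusted p = 0.432, edgeR).

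**Figure D1:**
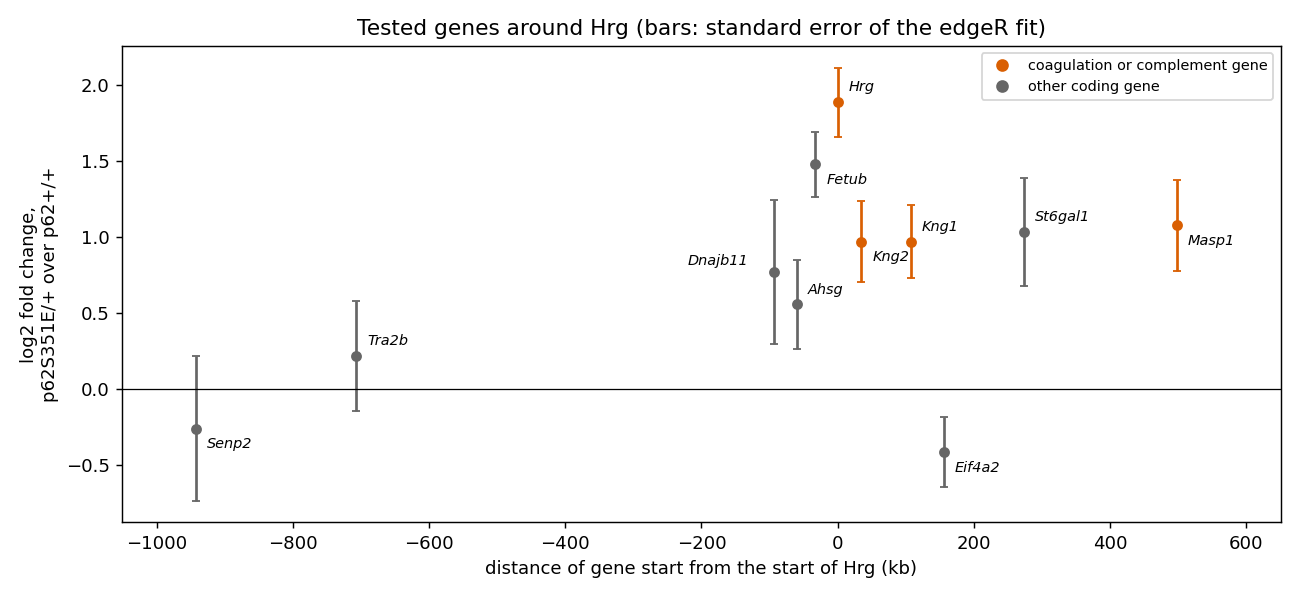
Log2 fold change (S351E over wild-type, vertical axis) of the 11 tested coding genes within 1000 kb of Hrg, by the distance of their start from that of Hrg in kb; bars are SEs of the edgeR fit. Hrg (1.89) and Fetub (1.48) were the genes that passed the thresholds, and Eif4a2 and Senp2 lay below 0.

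Other neighbouring pairs among the 41 genes did not all have like values. The 3 fibrinogen genes on chromosome 3 had log2 fold changes of 0.34, 0.44 and 0.49, and C4b, Cfb and C2 on chromosome 17 had 0.73, 0.50 and 0.61. By contrast F11 and Klkb1, which lie 4658 bases apart on chromosome 8, had -0.25 and 0.86, and F7 and F10, 1499 bases apart, had 0.76 and 0.22.

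Of the 23 coagulation genes, 21 had a log2 fold change above 0 and 2 below, with a median of 0.48 against -0.03 over all genes tested. In 10 of the 23 every S351E mouse was above every wild-type mouse, whereas this held for 12.0% of all tested genes. It also held for 8 of the 26 other hepatocyte plasma protein genes (30.8%). An unadjusted p below 0.05 with a higher level was reached by 9 of the 23, against 9.02% of all tested genes, and none reached it with a lower level, against 5.55%. The hepatocyte markers, whose part in these counts was not tested, had a median of 0.77 with 5 of 12 higher without overlap. Alb, Ttr, Apoa1, Apob, Trf and Ahsg are among these markers and among the 26 genes, so the lists are not separate. S351E mice 1 and 2 were both above all wild-type mice for 18 of the 23, against 20.9% of all tested genes. Mouse 3 was above all wild-type mice for 10 of the 23 (27.7% of all tested genes) and below for 6 (29.6%).

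**Figure D2:**
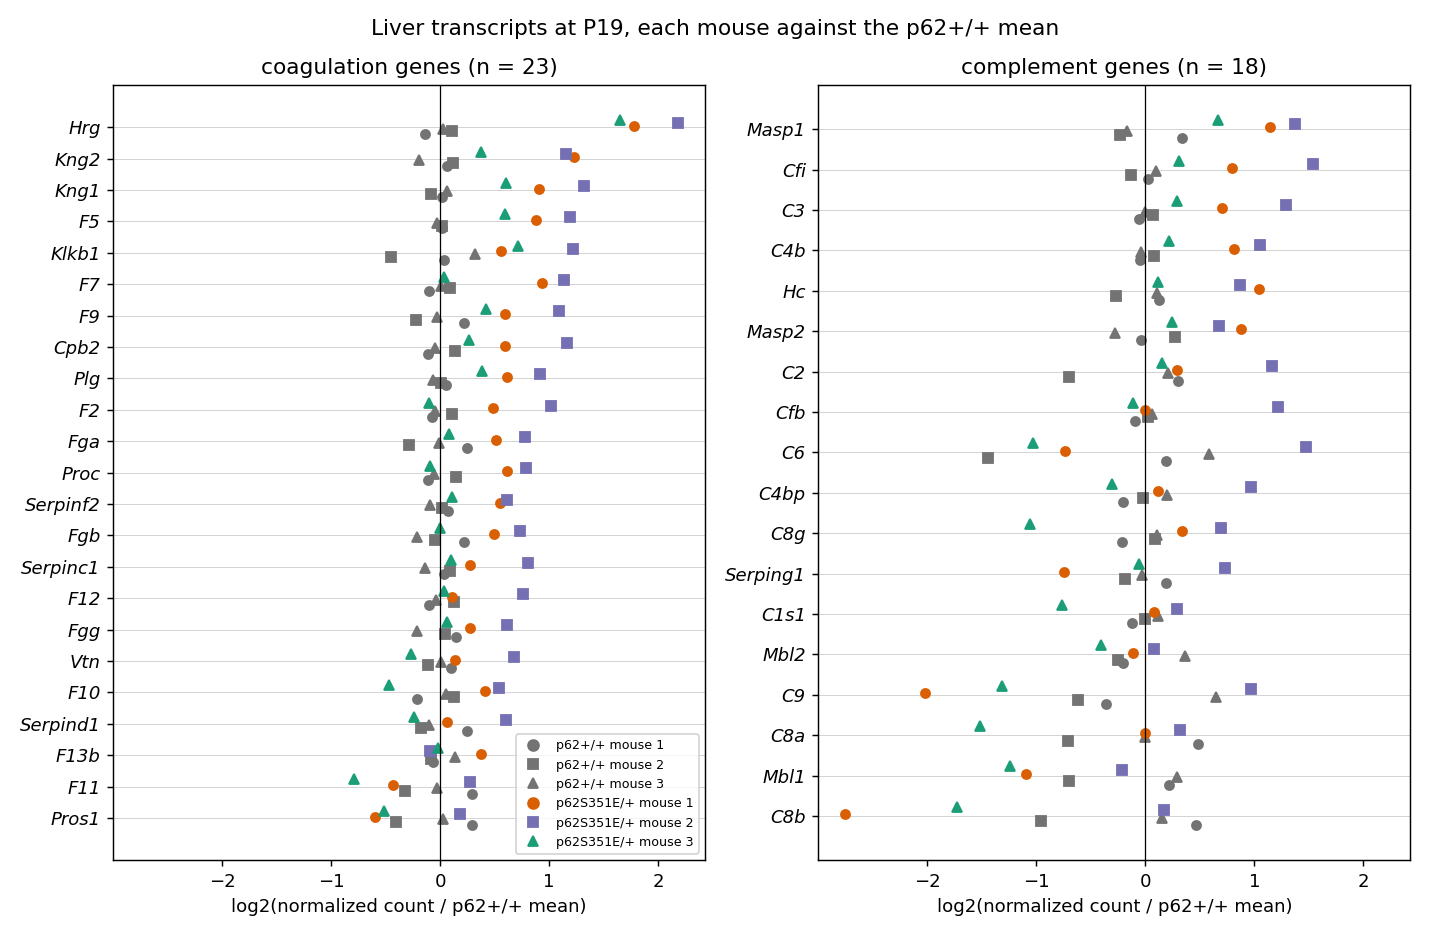
Each point is one mouse, as log2 of its normalized count over the wild-type mean of that gene, for the 23 coagulation genes (left) and the 18 complement genes (right), ordered by fitted log2 fold change. Hrg stands apart from the wild-type mice in all 3 S351E mice, while S351E mouse 3 (green triangles) is above all wild-type mice for 14 of the 41 genes and below all of them for 15, where 27.7% and 29.6% of all tested genes were.

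Fibrinogen, the clot precursor, is assembled from the chains encoded by Fga, Fgb and Fgg. Fga had 892, 617 and 744 normalized counts in wild-type mice and 1074, 1291 and 796 in S351E mice. Mice 1 and 2 of the latter were above all wild-type mice, and mouse 3 lay within their range (log2 fold change 0.49, SE 0.26, adjusted p = 0.414, edgeR). Per length of transcript, Fga made up between 32.2% and 40.0% of the 3 chains over all 6 mice, Fgb between 21.0% and 23.4%, and Fgg between 37.2% and 44.9%. F13b, the carrier subunit of the fibrin cross-linking enzyme, had a log2 fold change of 0.10 (SE 0.23).

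The vitamin K-dependent proteases F2, F7, F9 and F10 drive thrombin formation. F2 (prothrombin) had 226, 258 and 231 normalized counts in wild-type mice and 333, 483 and 222 in S351E mice. It was higher in mice 1 and 2, and mouse 3 was the lowest of all 6 (log2 fold change 0.54, SE 0.29, adjusted p = 0.421, edgeR). F9, the factor lacking in hemophilia B, did not overlap between the groups, with between 24.8 and 33.7 normalized counts in wild-type mice and between 38.7 and 61.7 in S351E mice (adjusted p = 0.269, edgeR). F7 and F10 had log2 fold changes of 0.76 and 0.22.

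F5 is the cofactor with which factor Xa forms thrombin. It had 140.4, 140.4 and 136 normalized counts in wild-type mice, a narrow range, and 255, 317 and 209.9 in S351E mice. The groups did not overlap, and the log2 fold change was 0.91 (SE 0.22, adjusted p = 0.121, edgeR). Counts of F5 were not all whole numbers, so some reads may be shared with other genes. The anticoagulants of the protein C pathway, which inactivate factor Va, gave 0.48 (SE 0.26) for Proc and -0.26 (SE 0.36) for its cofactor Pros1. Pros1 was low, with 17.7, 10.9 and 14.7 against 9.52, 16.4 and 10.1 normalized counts, and the groups overlapped.

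In the contact and kinin system, F12 and prekallikrein (Klkb1) activate each other on surfaces, and kallikrein releases bradykinin from kininogen. Klkb1 had between 21.7 and 37.1 normalized counts in wild-type mice and between 43.8 and 69.3 in S351E mice, without overlap (log2 fold change 0.86, SE 0.28, adjusted p = 0.242, edgeR). F12 gave 0.34 (SE 0.25). F11, the paralog of Klkb1, had 34.5, 22.5 and 27.6 against 20.9, 34.0 and 16.3 normalized counts, so that its groups overlapped (log2 fold change -0.25, SE 0.33, adjusted p = 0.712, edgeR).

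Thrombin is inhibited by antithrombin (Serpinc1) and by heparin cofactor II (Serpind1). Serpinc1 had 384, 398 and 339 normalized counts in wild-type mice and 451, 653 and 400.5 in S351E mice. Mouse 3 exceeded the highest wild-type mouse only slightly, and the log2 fold change of 0.42 (SE 0.24) did not pass (adjusted p = 0.443, edgeR). Serpind1 gave 0.18 (SE 0.26). In fibrinolysis, Plg had 468, 453 and 430.1 normalized counts in wild-type mice and 687, 850.4 and 589.5 in S351E mice, without overlap of the groups (log2 fold change 0.65, SE 0.22, adjusted p = 0.243, edgeR). Serpinf2, the plasmin inhibitor α2-antiplasmin, and Cpb2, which protects fibrin from plasmin, did not overlap either, with log2 fold changes of 0.44 and 0.72. Vtn (vitronectin) overlapped (0.24, SE 0.27).

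Of the 18 complement genes, 12 had a log2 fold change above 0 and 6 below, with a median of 0.36, and none passed the thresholds. At an unadjusted p below 0.05, 6 were higher and 0 lower by edgeR (9.02% and 5.55% of all tested genes), and 0 passed the adjusted threshold with DESeq2 or limma-voom. The groups did not overlap in 4 of the 18 (C3, C4b, Cfi and Masp1), all with higher S351E mice, as 12.0% of all tested genes were. Without overlap, 14.7% of all tested genes were lower, against 0 of the 41.

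C3, on which all 3 pathways converge, had the most counts of the 41 genes. Its normalized counts were 1197, 1308 and 1245 in wild-type mice and 2038, 3067 and 1524 in S351E mice. Every S351E mouse was above every wild-type mouse, but they spread widely, and the log2 fold change of 0.82 (SE 0.28) did not pass (adjusted p = 0.255, edgeR). Cfb, the protease of the alternative pathway convertase, overlapped (0.50, SE 0.35). C4b had 291, 319 and 293 normalized counts in wild-type mice and 529, 623 and 349 in S351E mice, without overlap (log2 fold change 0.73, SE 0.25, adjusted p = 0.26, edgeR). Its counts were not all whole numbers, and C4b has a close paralog. The proteases of the classical pathway gave 0.61 (SE 0.37) for C2 and -0.07 (SE 0.28) for C1s1.

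Among regulators, Cfi, which degrades C3b and C4b with cofactors such as C4bp, had 65.0, 58.2 and 68.2 normalized counts in wild-type mice and 110.4, 185 and 79.0 in S351E mice. The groups did not overlap (log2 fold change 0.97, SE 0.31, adjusted p = 0.237, edgeR). C4bp and the C1 inhibitor gene Serping1 overlapped, with 0.36 and 0.10.

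In the lectin pathway, mannose-binding lectins (Mbl1 and Mbl2) recruit the proteases Masp1 and Masp2. The proteases had log2 fold changes above 0 (1.08 for Masp1, and 0.61 for Masp2, SE 0.25, adjusted p = 0.316, edgeR) and the lectins below 0, and none passed. Masp2 had 51.5, 64.0 and 43.7 against 97.7, 84.6 and 63.0 normalized counts, so that mouse 3 lay just within the wild-type range. Mbl1 had 42.5, 22.5 and 44.9 normalized counts in wild-type mice and 17.1, 31.5 and 15.5 in S351E mice. The groups overlapped (log2 fold change -0.78, SE 0.37, adjusted p = 0.374, edgeR). Mbl2 gave -0.14 (SE 0.25).

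In the terminal pathway, C6, C8b and C9 had the widest ranges over the 6 mice of all 41 genes. Hc, which encodes C5, had 219.9, 167 and 217 against 413, 367 and 218 normalized counts, so that S351E mouse 3 lay in the wild-type range (log2 fold change 0.72, SE 0.28, adjusted p = 0.297, edgeR). C8b, a chain of C8, had 35.3, 13.2 and 28.5 normalized counts in wild-type mice and 3.81, 29.0 and 7.75 in S351E mice, a 9.27-fold range over the 6 mice. The 2 lowest values were those of S351E mice, the third S351E mouse lay in the wild-type range, and its log2 fold change of -0.90, the lowest of the 41 genes, had a SE of 0.69 (adjusted p = 0.559, edgeR). C9, which polymerizes into the pore, had 12.04, 10.1 and 24.2 against 3.81, 30.2 and 6.20 normalized counts (7.94-fold range), and C6 had 7.22, 2.33 and 9.50 against 3.81, 17.6 and 3.10 (7.57-fold range). C6 had between 2 and 14 raw counts, and C8b and C9 had 2 raw counts each in S351E mouse 1, so these low values are imprecise. The same mice, wild-type mice 1 and 3 and S351E mouse 2, were the highest for C6, C8b, C9 and Mbl1, a pattern noticed in the data and not tested. S351E mouse 2 was among the libraries low in brain markers and Xist, and wild-type mouse 3 among those high in both. C8a had a 3.98-fold range and C8g a 3.36-fold range, and both overlapped between the genotypes. Per length of transcript, C8b made up between 14.8% and 26.1% of the 3 chains in wild-type mice and 3.61%, 18.3% and 17.1% in S351E mice.

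**Figure D3:**
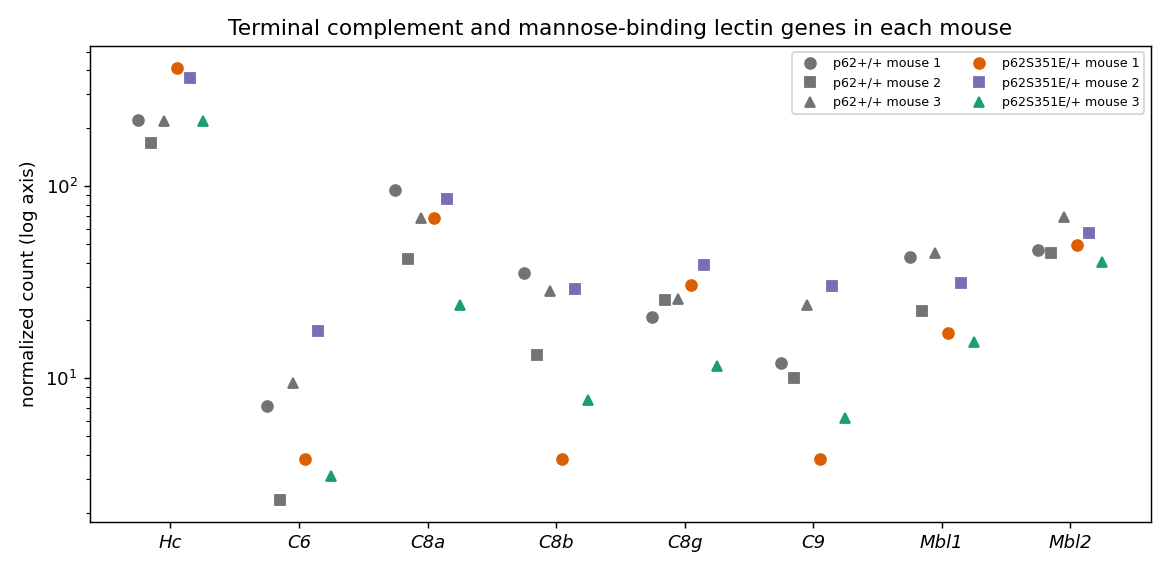
Normalized counts (log axis) of the terminal pathway genes Hc, C6, C8a, C8b, C8g and C9 and of the lectins Mbl1 and Mbl2, one point per mouse. C6, C8b and C9 spread from 7.57-fold to 9.27-fold over the 6 mice, with mice of both genotypes among the 3 highest and S351E mice 1 and 3 the lowest for C8b and C9.

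Coagulation and complement were then compared within each library, where the scaling cancels. The mean log2 normalized count of the 23 coagulation genes exceeded that of the 18 complement genes by 0.89, 1.15 and 0.73 in wild-type mice and by 1.44, 0.94 and 1.43 in S351E mice. Mouse 2 of the latter lay within the wild-type range and mice 1 and 3 above it. The group means were 0.92 ± 0.21 and 1.27 ± 0.28 (SD, n = 3 each), so the difference of 0.34 was not far above the spread between mice (0.27 as the difference of mean fitted log2 fold changes), and no test was made because the genes were chosen with earlier results known. The median log2 ratio of the coagulation genes to the wild-type mean was 0.53, 0.80 and 0.07 in S351E mice 1, 2 and 3, and that of the complement genes was 0.11, 0.92 and -0.20.
A list of 26 other hepatocyte plasma proteins, such as albumin and transferrin, gave 0.34, 0.95 and -0.02 in the same mice. Its fitted median log2 fold change was 0.49, close to the 0.48 of the coagulation genes. Thus in mouse 2 all 3 lists were high, and in mouse 3 none was. Counts of the 41 genes made up 3.20%, 3.06% and 3.03% of counts without Rn45s, Lars2 and Mir6236 in wild-type mice, and 4.16%, 4.87% and 3.33% in S351E mice.

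**Figure D4:**
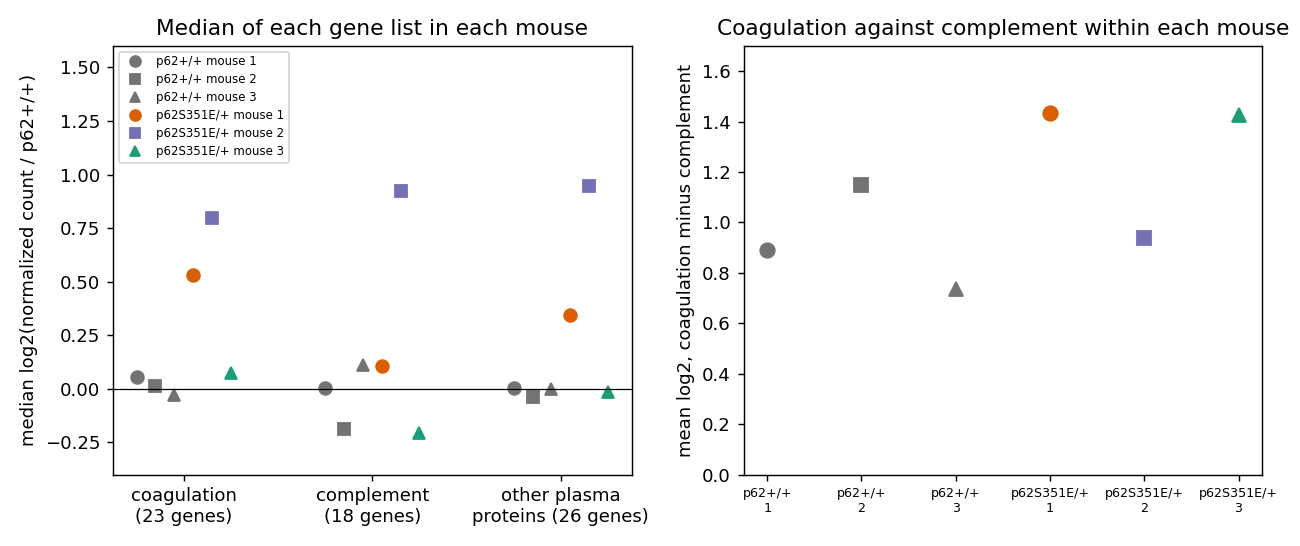
Left, the median log2 ratio to the wild-type mean of coagulation, complement and other plasma protein genes in each mouse; right, the mean log2 normalized count of coagulation genes minus that of complement genes in each mouse. All 3 lists are highest in S351E mouse 2 (0.80, 0.92 and 0.95), and the right-hand values overlap between the genotypes.

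Brain transcripts also differed between the S351E mice, and their part in these medians was not tested. Brain markers summed to 89, 44 and 1962 normalized counts in S351E mice 1, 2 and 3. The coagulation medians of these mice were 0.53, 0.80 and 0.07, and their complement medians 0.11, 0.92 and -0.20. In S351E mice 1 and 2, with 47 and 35 raw counts of brain markers, 25 of the 41 genes were above all wild-type mice in both (20.9% of all tested genes were). In mouse 3, with 2533 raw counts, 14 of the 41 were above all wild-type mice (27.7% of all tested genes were) and 15 were below all of them (29.6% were). With mouse 3 alone against the wild-type mice, the 4 libraries with brain transcripts, the median log2 fold change was 0.08 for coagulation and -0.20 for complement. With the brain marker level as a term of the fit, the medians were 0.03 and -0.32, and with the Xist level they were 0.14 and -0.16. The fit with the brain marker term rests mainly on mouse 3 as well, so its values are no separate check. Xist counts were 1, 0 and 1537 in S351E mice 1, 2 and 3. Values with the Xist term therefore lean on mouse 3 too and are no separate check either. Without S351E mouse 3, 8 of the 41 genes passed as higher (C3, Cfi, F5, F7, Hrg, Kng1, Kng2 and Masp1), when 333 of 6390 tested genes did. In this subset both S351E mice were low in brain markers and all wild-type mice high. Its values and p-values therefore cannot tell genotype from brain transcripts. For C3 the log2 fold change of 0.82 became 1.03 (adjusted p = 0.00385, edgeR) without mouse 3, 0.30 with mouse 3 alone and 0.22 with the brain marker term. For Cfi these values were 1.21 (adjusted p = 0.00348, edgeR), 0.32 and 0.22, and for C4b they were 0.94 (adjusted p = 0.00401, edgeR, below the fold minimum), 0.23 and 0.19. With mouse 3 alone Kng1 had 0.61, F5 0.60 and Kng2 0.39, and with the brain marker term they had 0.55, 0.56 and 0.39. Masp1 with mouse 3 alone had 0.68 and Plg 0.40, whereas Hc had 0.13, Fga 0.10 and Serpinc1 0.11.

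Levels were compared between genes per kilobase of the longest coding transcript. In wild-type mice Fgg (324 normalized counts per kilobase), Fga (290.3), C3 (243) and Vtn (203) were the most abundant of the 41 genes, and Pros1 (4.36), Masp1 (2.73) and C6 (2.21) the least. Hrg had 62.8 normalized counts per kilobase in wild-type mice and 233 in S351E mice, and was 11th of the 41 genes in wild-type mice.

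Genes of both pathways outside the 41 include many made by other cells. Of 29 other coagulation genes, 10 had enough counts to be tested, and none passed the thresholds. Their median log2 fold change was 0.43, and at an unadjusted p below 0.05 edgeR had 1 higher and 0 lower, and DESeq2 and limma-voom called none. The largest absolute value was that of Serpine2, a thrombin inhibitor, with 27, 27 and 16 raw counts in wild-type mice and 0, 0 and 18 in S351E mice. S351E mice 1 and 2 were also those with 47 and 35 counts of brain markers, whose part in this was not tested. Of 30 other complement genes, 16 were tested, with a median of 0.34, and 1 passed. This was Colec12, a scavenger receptor of the collectin family, with 5.62, 3.11 and 4.32 normalized counts in wild-type mice and 30.5, 20.2 and 20.1 in S351E mice. The groups did not overlap, although its raw counts were low, from 4 to 26, and the log2 fold change was 2.39 (SE 0.37, adjusted p = 0.0282, edgeR). DESeq2 called it too and limma-voom did not. C5ar1 and C3ar1, the receptors of the C5a and C3a fragments, had the next largest values, 1.17 (adjusted p = 0.253, edgeR) and 1.04 (adjusted p = 0.321, edgeR), and the groups of both did not overlap. Kupffer cell and macrophage markers summed to 116, 102 and 127 normalized counts in wild-type mice and to 162, 142 and 164 in S351E mice, without overlap. The single markers did not all go this way. Marco had means of 1.39 and 17.5, whereas Clec4f was lower in all S351E mice (24.1, 23.3 and 18.1 against 11.4, 16.4 and 16.3). Lyz2 was high in S351E mouse 3 (61.8). The part of these cells in the values of C5ar1 and C3ar1 was not tested. Stellate cell and fibroblast markers summed to 345, 204 and 209 normalized counts in wild-type mice and to 181, 123 and 180 in S351E mice, all below the wild-type mice. Of the 6 of them tested, 4 had a log2 fold change below 0 and 2 above. The collagen genes Col1a2 (-2.27) and Col3a1 (-1.94) did not overlap between the groups, whereas Col1a1 (-1.62), Dcn (-0.30), Reln (0.05) and Ecm1 (0.11) did. Sinusoidal endothelial markers (289, 177 and 205 against 297, 190 and 214) and erythroid markers (39, 29 and 45 against 53, 69 and 42) overlapped.

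RefSeq windows of 250 bases before the start were at hand for 32 of the 41 genes and searched on both strands, as for 27025 genes in all. The C/EBP-type motif TTGCNNAA was in 10 of the 32, or 31.2%, against 10.8% of all genes, and Fga, Fgb, C3, C9, F9, F11, Klkb1, Kng2, C1s1 and Hrg held it. It was in 9 of 22 windows of the other plasma proteins. An HNF4-type motif, CAAAGNNCA, was in 6 (18.8%, against 6.29%), and an HNF1-type motif in 3, C4bp, F13b and Hc (9.38%, against 0.44%). Of the 22 windows of the other plasma proteins, 2 held the HNF4-type and 2 the HNF1-type motif. C/EBP, HNF1 and HNF4 are transcription factors of hepatocytes. The core TGACNNNGC of the antioxidant response element, to which NRF2 binds, was in Klkb1 and Serpind1, that is 6.25% against 11.5% of all genes, and not in the window of Hrg. Among the other plasma proteins 5 of 22 windows held this core. A match of letters does not show that a factor binds.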

How the data were processed

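Livers of 3 p62+/+ and 3 p62S351E/+ mice were taken at postnatal day 19. Total RNA was depleted of ribosomal RNA and sequenced as single-end reads. The authors trimmed reads (Trim Galore), mapped them to mm10 (STAR) and deposited expected counts per gene by RSEM, without normalization. Versions are not given in the sources used here. Values that were not whole (6.45% of those above 0, tolerance 1e-06) arise where reads match several genes, and all were rounded for testing. Groups and replicate numbers were taken from the labels. Nothing in the labels names litters, sexes or batches, so p-values measure the spread between these mice.

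The whole table was fitted in R 4.3.3 with edgeR 4.0.16 (filterByExpr with a minimum count of 10, TMM, quasi-likelihood with legacy set to FALSE and robust estimation). Benjamini-Hochberg adjustment was over 5945 genes. The newer quasi-likelihood method was kept from earlier work on these data, where it was known to give fewer calls than the legacy method. Standard errors are the absolute log2 fold change over the square root of F. Normalized counts are expected counts divided by each library's TMM effective size, itself taken relative to the geometric mean of all 6. Log2 values per mouse used 0.5 as prior. With between 134911 and 315436 informative counts per library, genes of few counts are imprecise. Positions and transcript lengths are those of GENCODE M21 (GRCm38), and promoter windows those of RefSeq (GRCm38.p6).

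Alternatives were DESeq2 1.42.0, limma-voom (limma 3.58.1), the legacy method, other scalings and filters, covariates, the replicate number as a block, and subsets of the mice. The fit was tested on simulated counts over 4778 genes: edgeR recovered 81.8% of 154 genes changed by a log2 fold change of 2 in either direction, and 5.26% of its 133 calls were false. Limma-voom recovered 62.3% with 3.03% false, and DESeq2, over 5945 genes, 56.5% of 200 with 11.7% false. All 41 genes had smaller fitted changes, and the simulated mice did not differ in brain transcripts. These rates therefore do not bear on the genes that were not called. Every gene was accounted for. Values per mouse were given for genes with an adjusted p below 0.05, for the most abundant gene of each role, and for the 4 highest and 4 lowest log2 fold changes. F9, Klkb1, C6, C9 and the genes around Hrg were added after their values were seen. The members, gene lists and tests were chosen with earlier results of these data known.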

Additional observations from a re-analysis of the deposited data

How the results depend on the processing

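Hrg was higher under all 17 alternatives with at least 2 mice in each group, with a log2 fold change from 1.21 to 2.0 and an adjusted p from 1.2e-05 to 0.417, and passed the thresholds in 13. The 4 libraries with brain transcripts hold 1 S351E mouse (mouse 3), assumed to vary like the wild-type mice, so values of this setting describe that mouse. Values with the brain marker term, 1 of the 17 alternatives, rest mainly on that mouse too. Those with the Xist term lean on that mouse as well, the only p62S351E/+ mouse with more than 1 count of Xist. Hrg did not pass without any one p62+/+ mouse or with library size as the only scaling (1.21, adjusted p = 0.417), where the median of all genes moved to -0.68 and 0 of the 41 genes passed. With 1 mouse left out, from 0 to 8 of the 41 passed as higher, the 8 without p62S351E/+ mouse 3. In that case 333 of 6390 tested genes passed as higher. It also left 25 instead of 14 of the 41 without overlap between the groups, computed after the data had been seen. Of the 5945 genes tested with all mice, 20.9% instead of 12.0% were then higher without overlap. The p62S351E/+ mice left were both low in brain markers, so this subset cannot tell genotype from brain transcripts.

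The median of coagulation genes (0.48) was -0.27 if scaled by library size only, 0.21 for genes of at least 10 counts in every library, 0.0339 with the brain marker term, 0.14 with the Xist term and 0.0779 in the 4 libraries with brain transcripts. It was from 0.30 to 0.65 with 1 mouse left out. The median of complement genes (0.36) was -0.38, -0.32, -0.16 and -0.20 with library size only, the brain marker term, the Xist term and the 4 libraries, 0.136 with limma-voom and 0.2 with the block, and from -0.0815 to 0.67 with 1 mouse left out, below 0 without p62S351E/+ mouse 2. The difference of coagulation and complement (0.34 from values per mouse, 0.27 from fitted values) was, from fitted values, 0.60 with the brain marker term, 0.505 with the Xist term and 0.126 for genes of at least 10 counts in every library. From values per mouse it was 0.247 to 0.506 with 1 mouse left out. With library size only, C4b (-0.0142), F2 (-0.21), Fga (-0.24), Hc (-0.0723), Masp2 (-0.13), Plg (-0.0419) and Serpinc1 (-0.27) turned below 0, and F2 also did with the brain marker term (-0.16) and in the 4 libraries (-0.0903).

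Over all genes, 50 were higher and 5 lower. Higher genes numbered 131 with limma-voom, 12 with library size only, 79 without a filter, 18 with the block, 30 with the brain marker term and 29 with the Xist term. Lower genes numbered 8 with DESeq2, 12 with limma-voom, 8 with the legacy method, 2 with library size only, 10 without a filter, 29 with at least 10 counts in every library, 1 with the block, 2 with the brain marker term, 3 with the Xist term and 23 in the 4 libraries. With 1 mouse left out, from 16 to 333 were higher and from 1 to 975 lower. The cause of these shifts was not tested.

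Replicate numbers are shared by both genotypes, but deviations of same-numbered mice correlated at 0.0685, -0.0805 and 0.00264 over tested genes, so they were not taken as pairs. With the replicate number as a block, Hrg passed (log2 fold change 1.87, adjusted p = 0.0492, edgeR) and was the 1 of the 41 genes that did. C6, C8b and C9 had 2 counts each in p62S351E/+ mouse 1, the library of fewest informative counts, and such values carry a large counting error.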
